A study of Mus musculus with 2 samples.

Results

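The genes described are interferon gamma (Ifng), the chains of its receptor (Ifngr1 and Ifngr2) and 6 further cytokine genes (Tnf, Lta, Csf1, Csf2, Il2 and Il21), followed in T cells of mouse melanoma tumours. They were chosen by symbol from a list of 9 names, and all 9 were found among the 32285 genes of the deposited count matrix. Each was measured in every cell type and mouse, and its detection was set against that of Ifng in the same cells. The mice were of the C57BL/6J strain and all carried melanoma tumours: 4 had received the bacterium L. reuteri (hashtags named LR) and 4 had not (hashtags named PBS). For the tumour line, the dose, the times and the age of the mice nothing is given in the sources used here. Per the labels, cells were enriched for CD90.2 and live CD8+ cells were sorted from each mouse, while other labels speak of CD3+ T cells. Cells of all mice of a condition were joined after the sort and all were run on 1 lane, so that handling after the sort and treatment cannot be told apart. The hashtag names the mouse, and the mouse is the replicate. P-values measure the spread between these mice, apart from those of fits with no filter on low counts, as said below.

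Interferon gamma is the type II interferon, made chiefly by activated T cells and natural killer (NK) cells. It binds IFNGR1, the ligand-binding chain, which pairs with IFNGR2, the chain that carries the kinase JAK2, and the receptor raises Irf1, the guanylate-binding proteins and the genes of antigen presentation. Helper T cells of the interferon-producing kind are known to lose IFNGR2 and with it the response to their own cytokine. TNF and lymphotoxin alpha (Lta) bind TNF receptors, CSF1 and CSF2 act on macrophages and other myeloid cells, IL-2 is the growth factor of T cells and IL-21 is a helper cytokine that acts on B cells and CD8 T cells.

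The upstream sequences of Ifng, Ifngr1, Ifngr2 and Csf1 are shown because these were the members that differed between Pdcd1-positive and Pdcd1-negative CD8 cells. Each is the 250 bases before the RefSeq start site on build GRCm38.p6, written 5′ to 3′ on the strand of the gene, with motif matches in capitals. Ifng lies on the plus strand of chromosome 10 (window chr10:118440796-118441045), Ifngr1 on the plus strand of the same chromosome (chr10:19591699-19591948), Ifngr2 on the plus strand of chromosome 16 (chr16:91546809-91547058) and Csf1 on the minus strand of chromosome 3 (chr3:107760470-107760719).
Ifng: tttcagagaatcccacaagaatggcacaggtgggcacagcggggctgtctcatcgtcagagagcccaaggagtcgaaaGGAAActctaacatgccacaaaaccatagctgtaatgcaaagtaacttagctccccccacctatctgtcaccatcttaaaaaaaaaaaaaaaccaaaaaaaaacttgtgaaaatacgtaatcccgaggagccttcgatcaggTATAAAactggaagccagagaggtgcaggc
Ifngr1: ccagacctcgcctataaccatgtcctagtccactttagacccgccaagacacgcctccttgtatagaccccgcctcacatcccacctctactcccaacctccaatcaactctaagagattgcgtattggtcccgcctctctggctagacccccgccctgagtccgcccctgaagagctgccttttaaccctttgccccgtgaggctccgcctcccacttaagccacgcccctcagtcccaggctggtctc
Ifngr2: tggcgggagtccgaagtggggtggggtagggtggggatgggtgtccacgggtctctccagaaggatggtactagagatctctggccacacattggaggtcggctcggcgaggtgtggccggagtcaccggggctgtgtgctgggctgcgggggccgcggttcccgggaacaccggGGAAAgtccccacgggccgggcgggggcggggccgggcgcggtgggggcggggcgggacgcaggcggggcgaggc
Csf1: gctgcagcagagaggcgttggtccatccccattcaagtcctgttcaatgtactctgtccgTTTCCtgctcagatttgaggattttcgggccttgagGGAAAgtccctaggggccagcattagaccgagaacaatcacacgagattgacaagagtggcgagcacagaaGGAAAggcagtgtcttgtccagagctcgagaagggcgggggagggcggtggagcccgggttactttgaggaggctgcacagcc
The motifs searched on both strands were GGAAA (the core bound by NFAT factors, TTTCC on the other strand), TGACTCA or TGAGTCA (AP-1), TGACGTCA (CRE), GGTGTGA (the T-box core) and TATAAA (the TATA box). The Ifng window held 1 GGAAA and the TATA box, and Csf1 held 3 GGAAA. Ifngr2 held 1 GGAAA in a window with 25 CpG dinucleotides and 74.0% G and C, and Ifngr1 held none of the motifs in a window with 11 CpG dinucleotides. The Ifng window had 6 CpG dinucleotides and 45.2% G and C, against a median of 6 and 52.4% over all 32851 RefSeq windows of this length. Of the others, Tnf and Il21 held 3 GGAAA each, and Lta, Csf2 and Il2 held 2 each, while Tnf, Lta and Il2 also held the TATA box. GGAAA was in 55.6% of all windows and TATAAA in 12.4%. AP-1 (4.46% of all windows), CRE (1.55%) and T-box (3.33%) matches were in none of the 9 windows. These matches are letters in a window and are not measured binding.

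In the GENCODE M21 annotation of build GRCm38, Tnf (chr17:35199381-35202007) and Lta (chr17:35203165-35205351) are neighbours on the minus strand with 1157 bases between them. Il2 (chr3:37120523-37125959) and Il21 (chr3:37222759-37232636) lie on the minus strand of chromosome 3 with 96799 bases between them. The spans of the others are chr10:118441046-118445892 (Ifng), chr10:19591949-19610229 (Ifngr1), chr16:91547072-91565623 (Ifngr2), chr3:107741048-107760469 (Csf1) and chr11:54247271-54249667 (Csf2).

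After filters, 10406 cells with 1 hashtag and 1 mouse each were kept, with no barcode repeated, 479 to 2586 cells and 2627575 to 9294975 gene UMIs per mouse, and a median of 3272.5 UMIs per cell. A UMI stands for 1 captured RNA molecule, and a level is given as the UMIs of a gene per 1000000 gene UMIs of the cells summed (CPM). Cells were put into gates by UMIs of a few genes: 6020 CD8 cells (Cd8a or Cd8b1, without Cd4), 1281 Cd4+ Foxp3- cells, 495 Foxp3+ cells and 1649 T cells without a UMI of any of these genes, called undetermined. CD8 cells were split by Pdcd1, the gene of the checkpoint receptor PD-1, into 1833 Pdcd1+ and 4187 Pdcd1- cells, and by Xcl1, a chemokine gene, at 3 UMIs into 183 Pdcd1+ Xcl1-high, 1650 Pdcd1+ Xcl1-low, 39 Pdcd1- Xcl1-high and 4148 Pdcd1- Xcl1-low cells. The gates differ in depth, with a median of 10223 UMIs per cell in Pdcd1+ Xcl1-high, 5232 in Pdcd1+ Xcl1-low, 3401 in Pdcd1- Xcl1-low and 2853 in Cd4+ Foxp3- cells. The gates also differ in markers of T cell state. Markers of exhausted cells other than Pdcd1, the gene of the gate (Havcr2, Lag3, Tigit and Tox), summed to 984 CPM in Pdcd1+ Xcl1-high, 1273 CPM in Pdcd1+ Xcl1-low and 175 CPM in Pdcd1- Xcl1-low CD8 cells, and markers of naive or memory cells (among them Ccr7, Lef1, Tcf7 and Il7r) to 414 CPM in Pdcd1+ Xcl1-low and 2688 CPM in Pdcd1- Xcl1-low cells. Melanoma markers summed to at most 3.36 CPM and fibroblast markers to at most 0.42 CPM in these T cell gates. In such sums fewer cells of a type and less RNA per cell cannot be told apart.

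Ifng UMIs were unevenly spread over cells, as were those of several other members. Of 5253 Ifng UMIs, 79.0% lay in Pdcd1+ CD8 cells, which were 17.6% of all cells. The top 1% of cells (104 cells) by each gene held 41.5% of the UMIs of Ifng, 41.4% of Lta, 39.0% of Csf1 and 25.6% of Tnf. They held 14.1% of the UMIs of Ifngr2 and 7.14% of Ifngr1. For Csf2, Il2 and Il21, each found in at most 112 cells, the share was 94.8 to 100%. An Ifng UMI was found in 1646 cells (15.8%), of which 808 had exactly 1, 211 had at least 5 and 39 had at least 10. A pair of cells of LR mouse 1 held 726 and 180 Ifng UMIs, and the next cell held 76. The first, an Xcl1-low cell with 23471 gene UMIs, spent 3.09% of them on Ifng and also held 640 UMIs of Ccl3 and 502 of Ccl4, chemokine genes of activated CD8 cells, but 1 UMI each of Tnf, Lta and Csf1. The other, an Xcl1-high cell, held 17 UMIs of Csf2 and 5 of Tnf, with 1 of Ccl3. Together this pair held 17.2% of all Ifng UMIs. Values of LR mouse 1 are given with and without them where they matter, except between Ifng-positive and Ifng-negative cells, where this was not run.

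**Figure D1:**
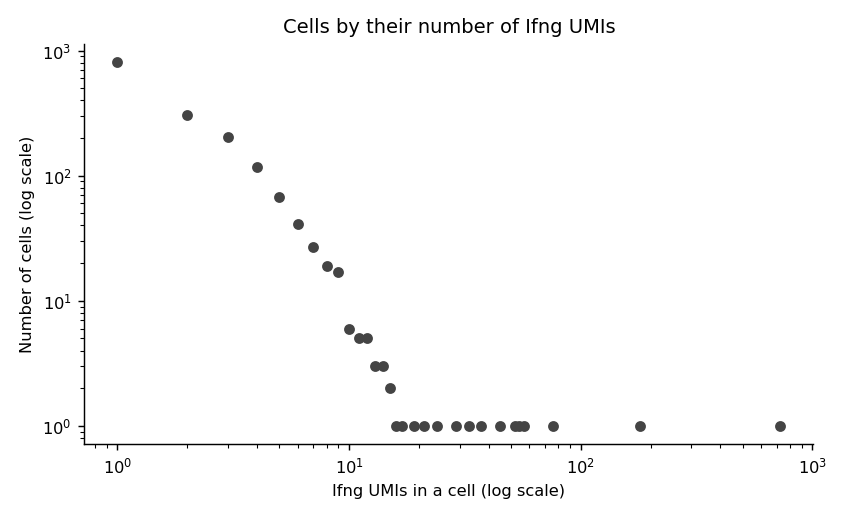
Number of cells (vertical, log scale) by the number of Ifng UMIs in the cell (horizontal, log scale), over the 1646 cells with any. Counts fall from 808 cells with 1 UMI to single cells, and 2 cells at 180 and 726 UMIs stand apart from the next at 76.

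From the highest to the lowest mean, the Ifng level of the 6 T cell gates described above that hold over 100 cells had the order Pdcd1+ Xcl1-high, Pdcd1+ Xcl1-low, Cd4+ Foxp3-, Pdcd1- Xcl1-low, undetermined and Foxp3+. In Pdcd1+ Xcl1-high cells it ran from 119 to 978 CPM over mice with a median of 368 (421 ± 270, SD, n = 8). Among Pdcd1+ Xcl1-low cells it ran from 128 to 673 CPM with a median of 242 (281 ± 164). LR mouse 1 was the highest and PBS mouse 7 the lowest in both of these gates. Without the 2 cells LR mouse 1 stood at 438 CPM in the Xcl1-high gate (mean 354 ± 153, 119 to 566) and at 168 CPM in the Xcl1-low gate (mean 217 ± 46.4, 128 to 264), and was the highest in neither. The 39 Pdcd1- Xcl1-high cells (104 ± 110 CPM) and the 21 NK cells (103 ± 101 CPM, 5 mice) lay between Pdcd1+ Xcl1-low and Cd4+ Foxp3- cells, with SDs about as large as their means. The Cd4+ Foxp3- level was 67.0 ± 49.0 CPM (16.3 to 160), the Pdcd1- Xcl1-low level 54.2 ± 30.7 CPM, the undetermined level 46.3 ± 27.2 CPM and the Foxp3+ level 21.9 ± 7.15 CPM (10.7 to 29.8). The neighbours from Cd4+ Foxp3- to undetermined cells differed by less than their SDs. Within Pdcd1- Xcl1-low CD8 cells, those without a Ccr7 or Lef1 UMI (genes of naive and memory T cells) stood at 146 ± 91.0 CPM and those with one at 27.8 ± 11.5 CPM.

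The share of cells with an Ifng UMI was 69.9% in Pdcd1+ Xcl1-high cells and 50.9% in Pdcd1+ Xcl1-low cells, and 36.3% and 29.7% after thinning every cell to 2000 UMIs. It was 7.64% in Pdcd1- Xcl1-low cells, 8.90% in Cd4+ Foxp3- cells and 8.89% in Foxp3+ cells, and 4.65%, 6.65% and 4.64% after thinning. Myeloid cells, which should lack Ifng, gave a background of 2 of 44 cells (4.55%, exact 95% interval 0.555 to 15.5%, 2.17% thinned) at a median of 7322.5 UMIs, deeper than those gates. Pdcd1- Xcl1-low cells with Ccr7 or Lef1 gave 4.88% at a median of 3496 UMIs. The shares of the Foxp3+, Cd4+ Foxp3- and Pdcd1- Xcl1-low gates taken whole lay inside the interval of that background. With 44 cells the interval is too wide to decide whether these shares exceed it, so they are read neither as expression nor as its absence. Pdcd1- Xcl1-low cells without Ccr7 or Lef1 lay above the background interval, at 20.7% (exact 95% interval 17.8 to 23.9%, and 17.2% thinned). NK cells, the other known source, were 21 in number, and 38.1% of them held an Ifng UMI.

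Ifngr1, the ligand-binding chain, was found widely, with 23638 UMIs in 70.1% of cells. Among the 6 gates ordered above, the level was 965 ± 201 CPM in Foxp3+ cells, 806 ± 275 in Cd4+ Foxp3-, 803 ± 245 in undetermined, 664 ± 190 in Pdcd1- Xcl1-low, 469 ± 98.5 in Pdcd1+ Xcl1-low and 167 ± 49.4 in Pdcd1+ Xcl1-high cells (SD, n = 8 mice each). In the last 2 gates the mice did not overlap, with 99.9 to 232 CPM in Xcl1-high against 300 to 605 CPM in Xcl1-low cells. Neighbours from Foxp3+ to Pdcd1- Xcl1-low cells differed by less than their SDs. All 21 NK cells held Ifngr1, with 101 UMIs and a mean of 1708 CPM over 5 mice, above each of these gates. PBS mouse 7 was the lowest in CD8 cells (228 CPM) and in Cd4+ Foxp3- cells (232 CPM).

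Ifngr2, the JAK2-carrying chain, had 1954 UMIs in 15.2% of cells, and Pdcd1+ CD8 cells, although 17.6% of the cells, held 3.84% of them. Its level was 99.0 ± 33.9 CPM in undetermined, 68.5 ± 23.3 in Cd4+ Foxp3-, 62.5 ± 20.5 in Pdcd1- Xcl1-low, 14.3 ± 8.94 in Foxp3+ and 6.84 ± 5.52 in Pdcd1+ Xcl1-low cells. Only 2 Ifngr2 UMIs were counted in all 183 Pdcd1+ Xcl1-high cells. Within Pdcd1- Xcl1-low cells the level was 70.5 ± 22.2 CPM with a Ccr7 or Lef1 UMI and 27.2 ± 13.6 CPM without. Myeloid cells had the highest level of any gate given here, 148 ± 88.1 CPM.

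Tnf, a broad inflammatory cytokine, was found in every T cell gate. Its 1647 UMIs gave 50.8 ± 25.2 CPM in Pdcd1+ Xcl1-high, 37.6 ± 15.5 in Pdcd1+ Xcl1-low, 33.7 ± 3.82 in all Pdcd1- CD8, 55.9 ± 17.8 in Cd4+ Foxp3- and 28.2 ± 11.9 CPM in Foxp3+ cells. Myeloid cells stood at 244 ± 252 CPM, and 40.9% of them held a Tnf UMI. Lta, the lymphotoxin next to Tnf in the genome, had 614 UMIs, with 30.8 ± 19.0 CPM in Pdcd1+ Xcl1-high, 8.37 ± 3.93 in Pdcd1+ Xcl1-low and 22.3 ± 10.2 CPM in Cd4+ Foxp3- cells. The Xcl1-high cells, 1.76% of all cells, held 12.9% of the Lta UMIs.

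The myeloid growth factor genes, like Ifng, had most of their UMIs in Pdcd1+ CD8 cells. Csf1, the macrophage growth factor, had 1088 UMIs, of which 71.0% lay in Pdcd1+ CD8 cells. It stood at 60.1 ± 25.9 CPM in Pdcd1+ Xcl1-low, 33.9 ± 13.7 in Pdcd1+ Xcl1-high, 13.3 ± 7.19 in Cd4+ Foxp3- and 8.14 ± 9.13 CPM in Pdcd1- CD8 cells, where LR mouse 4 (29.9 CPM) was the highest. Csf2, which encodes GM-CSF, had 202 UMIs, of which 51.0% lay in the 183 Xcl1-high cells. The mice spread widely there, with 101, 65.8, 18.6 and 3.94 CPM in LR mice 1 to 4 and 14.7, 26.5, 104 and 8.02 CPM in PBS mice 6 to 9, and both groups covered almost the same range. Of the 32 Csf2 UMIs of LR mouse 1 there, 17 came from the cell with 180 Ifng UMIs, and without that cell the mouse stood at 50.9 CPM. Csf2 in Pdcd1+ Xcl1-low cells stood at 3.02 ± 2.29 CPM.

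Il2 and Il21 were near the limit of detection. Il2 had 135 UMIs in 111 cells, at 10.3 ± 4.44 CPM in Cd4+ Foxp3- cells (4.55 to 15.3) and 2.29 ± 1.45 CPM in CD8 cells. No Il2 UMI was found in 495 Foxp3+ cells, which allows a share of cells with a UMI of up to 0.606%. Il21 had 36 UMIs in 27 cells, 13 of them in Cd4+ Foxp3- cells and 15 in Pdcd1+ CD8 cells. Intervals and limits of this kind cover counting error only.

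**Figure D2:**
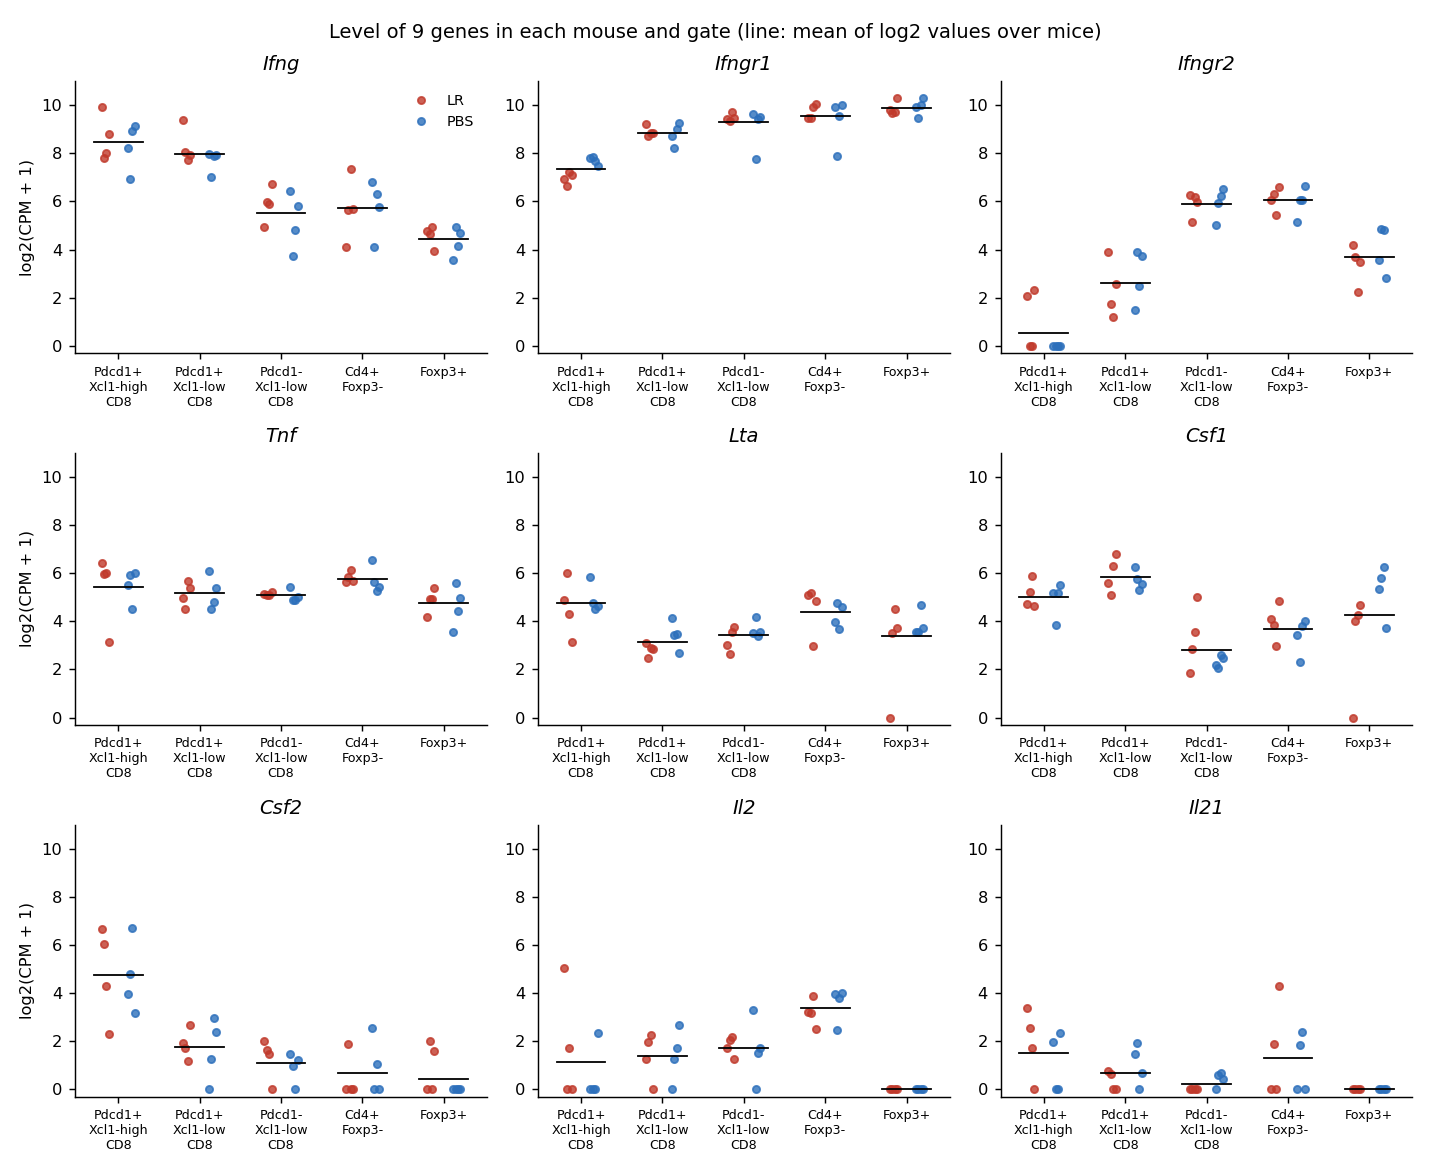
Level of each of the 9 genes, as log2(CPM + 1), in 5 gates, with 1 point per mouse (LR red, PBS blue) and a line at the mean of the log2 values. Ifng and Csf2 are highest in the Pdcd1+ Xcl1-high gate, where Ifngr1 and Ifngr2 are lowest, and Il2 is highest in the Cd4+ Foxp3- gate.

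Several cytokines in 1 cell were most common in Xcl1-high cells. Of the 7 cytokine genes among the members, at least 2 were found in 54.6% of Pdcd1+ Xcl1-high, 26.6% of Pdcd1+ Xcl1-low, 2.75% of Pdcd1- Xcl1-low and 5.07% of Cd4+ Foxp3- cells. At least 3 were found in 26.2%, 4.48%, 0.410% and 1.17% of them. These shares rise with depth, which differs between the gates as given above, and they were not thinned. The most found in any cell was 5.

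The first comparison asked how the members differ between Pdcd1+ and Pdcd1- CD8 cells of the same mice. Csf1 and Ifng were higher and both receptor chains lower in the Pdcd1+ cells. Of the 9 members 6 passed the filter on low counts and 4 of these were called at an adjusted p of at most 0.05, in a contrast where 59.9% of the 8703 genes tested were called (29.2% higher, 30.7% lower). The count of members is therefore close to the background, and the size of each difference is what can be read. Adjusted p-values here and below are from edgeR's quasi-likelihood test with Benjamini-Hochberg adjustment over all genes tested, and log2 ratios carry their standard error.

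Ifng ran from 127 to 729 CPM in Pdcd1+ cells (median 259) and from 12.9 to 101 CPM in Pdcd1- cells (median 56.2), with no overlap between the gates. Its log2 ratio was 2.46 ± 0.27 (adjusted p = 9.8e-07, higher in 8 of 8 mice) and 2.20 without the cells of over 100 Ifng UMIs. Csf1 ran from 33.5 to 102 CPM in Pdcd1+ and from 2.59 to 29.9 CPM in Pdcd1- cells, also without overlap, with a log2 ratio of 2.91 ± 0.21 (adjusted p = 7.2e-09, higher in 8 of 8 mice). Ifngr2 ran from 0.826 to 12.03 CPM in Pdcd1+ and from 31.0 to 89.2 CPM in Pdcd1- cells, with a log2 ratio of -3.51 ± 0.20 (adjusted p = 6.4e-10, lower in 8 of 8 mice). It was the widest difference among the members. Ifngr1, the other chain, ran from 288 to 549 CPM in Pdcd1+ and from 216 to 825 CPM in Pdcd1- cells, with a log2 ratio of -0.75 ± 0.12 (adjusted p = 4.6e-05). It was lower in 7 of 8 mice, PBS mouse 7 being the exception. Tnf (0.08 ± 0.11, adjusted p = 0.570) and Lta (-0.03 ± 0.26, adjusted p = 0.923) did not pass the test. With no filter on low counts Csf2 was also called, at 2.42 ± 0.32, where 36% of genes were called. Standard errors were smaller without the filter (0.15 in place of 0.20 for Ifngr2). The unadjusted edgeR p of Ifng was 1.2e-07 with the filter and 1.1e-170 without it, from the same 8 mice. P-values without the filter are therefore not read as the spread of a gene between mice. Here and below the members with the lowest counts could be tested without the filter only.

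Markers of naive or memory cells summed to 402 CPM in the Pdcd1+ and 2650 CPM in the Pdcd1- gate, and their part in these differences was examined with CD8 cells that lack a Ccr7 or Lef1 UMI, a choice made after seeing the data. Among these cells the Ifng difference was 1.00 ± 0.18 and the Csf1 difference 1.56 ± 0.32 on the log2 scale. Ifngr1 stood at -0.80 ± 0.11, close to its value over all CD8 cells. Tnf was lower in Pdcd1+ cells there, at -0.45 (adjusted p = 0.0358). Ifngr2 and Lta had too few counts to be tested in those cells. The restriction also selects by depth. Among Pdcd1- Xcl1-low cells the median was 2466 UMIs without a Ccr7 or Lef1 UMI and 3496 UMIs with one. Markers of naive or memory cells still summed to 969 CPM in those without, so that signal was reduced and not removed. Scaling by library totals in place of TMM, edgeR's scaling by trimmed means, moved the median of all genes to 0.12, and called genes were then higher in 62.5% of cases against 48.8%. Ifng, Csf1, Ifngr1 and Ifngr2 kept their directions under that scaling, and Lta moved to 0.11.

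Genes of the interferon gamma pathway were counted in the same contrast from lists chosen with earlier results of these data known. Of the receptor signalling list all 10 genes were tested; 1 was higher and 8 lower in Pdcd1+ cells, with a median log2 ratio of -0.84 against -0.02 over all genes. Socs3, a feedback inhibitor of cytokine receptors, fell from 372 to 46.8 CPM (log2 ratio -3.18), Socs1, the feedback inhibitor of this receptor, from 193 to 73.1 CPM (-1.54), and Irf1, a transcription factor that interferon gamma induces, from 453 to 186 CPM (-1.44). Without Ccr7 or Lef1 cells 1984 of 5402 genes were called (948 higher, 1036 lower). Of the 10 signalling genes 1 was then higher and 7 lower, with Socs3 at -2.71, Irf1 at -1.20 and Socs1 at -1.01. Of 16 interferon gamma targets 13 were tested, with 4 higher and 6 lower and a median of -0.53. The GTPase genes Igtp (-1.29), Irgm1 (-1.28) and Irgm2 (-1.24) fell. Of 15 regulators of Ifng 14 were tested, with 8 higher and 2 lower (median 0.53): Bhlhe40, a transcription factor of cytokine production, rose by 2.06, Irf4 by 1.45 and Eomes by 1.25. Without Ccr7 or Lef1 cells 3 regulators were higher and 3 lower of 12, with Bhlhe40 at 0.83 and Eomes at 0.55. The background there was again 1984 of 5402 genes.

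Among receptors of the other cytokines 7 of 12 were tested, 3 were higher and 1 lower. Il2ra (1.84) and Il2rb (1.14), chains of the IL-2 receptor, and Tnfrsf1b (1.12), a TNF receptor, rose. Among 18 other T cell cytokines 7 were tested, with 4 higher and 2 lower. Fasl rose by 1.27, Tnfsf10 by 1.15, and Ltb, the partner of Lta in membrane lymphotoxin, fell by 0.63. Without Ccr7 or Lef1 cells neither Fasl (0.24, adjusted p = 0.251) nor Tnfsf10 (0.46, adjusted p = 0.0677) passed the test.

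Within Pdcd1+ CD8 cells the Xcl1-high cells had less Ifngr1 and Csf1 and more Ifng than the Xcl1-low cells of the same mice. Of the 9 members 4 were tested and 3 called, against 38.7% of all 6220 genes tested (20% higher, 18.7% lower). Ifngr1 fell by 1.53 on the log2 scale (SE 0.15, adjusted p = 1.8e-07, lower in 8 of 8 mice). Ifng rose by 0.54 ± 0.13 (adjusted p = 0.00227, higher in 6 of 8 mice; 0.65 without the cells of over 100 Ifng UMIs). The Ifng call was lost without the mouse as a block (adjusted p = 0.156) and with Pdcd1+ set at 2 UMIs (adjusted p = 0.103). Csf1 stood at -0.72 ± 0.21 (adjusted p = 0.0112, lower in 7 of 8 mice), and its call was lost without LR mouse 4 (-0.50, adjusted p = 0.0607). Tnf missed the threshold at 0.45 ± 0.27 (adjusted p = 0.187) and passed it without LR mouse 4 (0.66, adjusted p = 0.0370).

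Low-count members joined the contrast when no filter was set, where 17.4% of genes were called. Csf2 then rose by 3.54 ± 0.30 and Lta by 1.91 ± 0.27 in Xcl1-high cells, and Ifngr2 fell by 2.64 (SE 0.79, adjusted p = 0.00666) on its 2 UMIs. Il2 (0.81) and Il21 (1.97, adjusted p = 0.167) were not called. The lists were counted with the filter, where 38.7% of genes were called. Of the receptor signalling genes 0 were higher and 5 lower of 10 tested (median -0.45 against -0.02), with Socs3 at -1.56, Jak1, the kinase of IFNGR1, at -0.69 and Irf1 at -0.65. Of interferon gamma targets 0 were higher and 7 lower of 11 tested (median -0.75), with Irgm1 at -1.20, Igtp at -1.19 and Gbp4 at -1.12. Fasl (-0.81) and Ltb (-0.50) fell and Tgfb1 (0.41) rose among the other cytokines. Il2rb (-0.66) and Tnfrsf1b (-0.54) fell among the receptors. Of the regulators of Ifng 4 rose and 3 fell of 13.

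CD8 cells were then set against Cd4+ Foxp3- cells of the same mice. CD8 cells had more Ifng and Csf1 and less of both receptor chains and Tnf, and Lta was lower at the threshold of the test. All 6 members tested were called, against 26.3% of 8835 genes (14.4% higher, 11.8% lower). The Ifng level was 177 ± 78.9 CPM in CD8 and 67.0 ± 49.0 CPM in Cd4+ cells (log2 ratio 1.37 ± 0.19, adjusted p = 2.9e-06), and the Csf1 level 34.8 ± 25.5 against 13.3 ± 7.19 CPM (1.28 ± 0.23), both higher in 8 of 8 mice. Ifngr1 stood at 500 ± 131 against 806 ± 275 CPM (-0.53 ± 0.10) and Ifngr2 at 33.2 ± 19.97 against 68.5 ± 23.3 CPM (-0.93 ± 0.22, adjusted p = 0.00196), both lower in 8 of 8 mice. Tnf stood at 37.8 ± 9.62 against 55.9 ± 17.8 CPM (-0.50 ± 0.13, adjusted p = 0.00642, 8 of 8 mice). Lta was at the threshold (12.7 against 22.3 CPM, -0.64 ± 0.24, adjusted p = 0.0496, lower in 6 of 8 mice) and lost its call without LR mouse 1, 2 or 4 or PBS mouse 7 or 9 (adjusted p up to 0.168). Its call was also lost with DESeq2 (adjusted p = 0.0768), and in edgeR with no filter (0.0551) and at most 5% mitochondrial counts (0.0559). The same held with CD8 cells that lack Ccr7 and Lef1 (0.0624). Without the mouse as a block 2 members were called, where 2023 of 8835 genes were called in place of 2320. With CD8 cells that lack Ccr7 and Lef1, Ifngr2 stood at -3.10, Ifng at 2.001 and Tnf at -0.28 (adjusted p = 0.139). Only the CD8 side was restricted there, and the Cd4+ Foxp3- cells were kept whole, so these values do not compare like cells. Library totals moved the share of called genes that were higher from 55% to 39%.

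With no filter, where 2629 of 17086 genes were called, Il2 was lower in CD8 cells (-2.23, adjusted p = 2.7e-06), as was Il21 (-2.11, adjusted p = 0.0160), and Csf2 was higher (2.93). Few counts lay behind these values, with 19 Il21 UMIs in CD8 and 13 in Cd4+ Foxp3- cells, and 3 Csf2 UMIs in Cd4+ Foxp3- cells. The lists were counted with the filter, against the background of 26.3%. Cd40lg, a defining cytokine of helper cells (-3.99), and Tnfsf11 (-2.23) were lower among the other cytokines, where 1 rose and 2 fell of 8 tested. Of the signalling genes 0 rose and 7 fell of 10 tested (median -0.45 against 0.00), with Socs3 at -1.20, Irf1 at -0.68 and Irf9 at -0.56. Of the targets 3 rose and 2 fell of 14: Iigp1 (-1.41) and Igtp (-0.74) fell and the immunoproteasome gene Psmb9 (0.46) rose. Of the regulators 4 rose and 2 fell of 14, with Eomes at 2.82 and Bhlhe40 at 0.84.

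Foxp3+ cells, the gate of regulatory T cells, had less Tnf than Cd4+ Foxp3- cells. Only 2 of the 9 members passed the filter, and 1 was called, against 48.3% of 4124 genes (23.7% higher, 24.6% lower). Tnf stood at 28.2 ± 11.9 against 55.9 ± 17.8 CPM (-0.92 ± 0.24, adjusted p = 0.00418, lower in 8 of 8 mice). With cells of at most 5% mitochondrial counts Tnf did not pass the filter and was not tested. Ifngr1 stood at 965 ± 201 against 806 ± 275 CPM (0.27 ± 0.13, adjusted p = 0.108, higher in 6 of 8 mice), and it passed the threshold with library totals (0.36, adjusted p = 0.0439) and without LR mouse 3 (0.36, adjusted p = 0.0424). With no filter, where 21.1% of genes were called, Ifng (-1.48) and Ifngr2 (-2.14) were lower and Csf1 (1.70) and Ifngr1 (0.31) higher in Foxp3+ cells. In the lists, counted with the filter and a background of 48.3%, 1 of 10 signalling genes rose and 7 fell (median -0.56 against 0.00), with Socs3 at -2.41, Socs1 at -1.14 and Jak1 at -0.88. Of the targets 7 rose and 0 fell of 10 (median 0.53), with Gbp3 at 1.89, Gbp7 at 1.04 and Tap1 at 0.69. Il2ra, the receptor chain that marks regulatory T cells, rose by 3.74. Library totals moved the share of called genes that were higher from 49.1% to 60.5%.

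**Figure D3:**
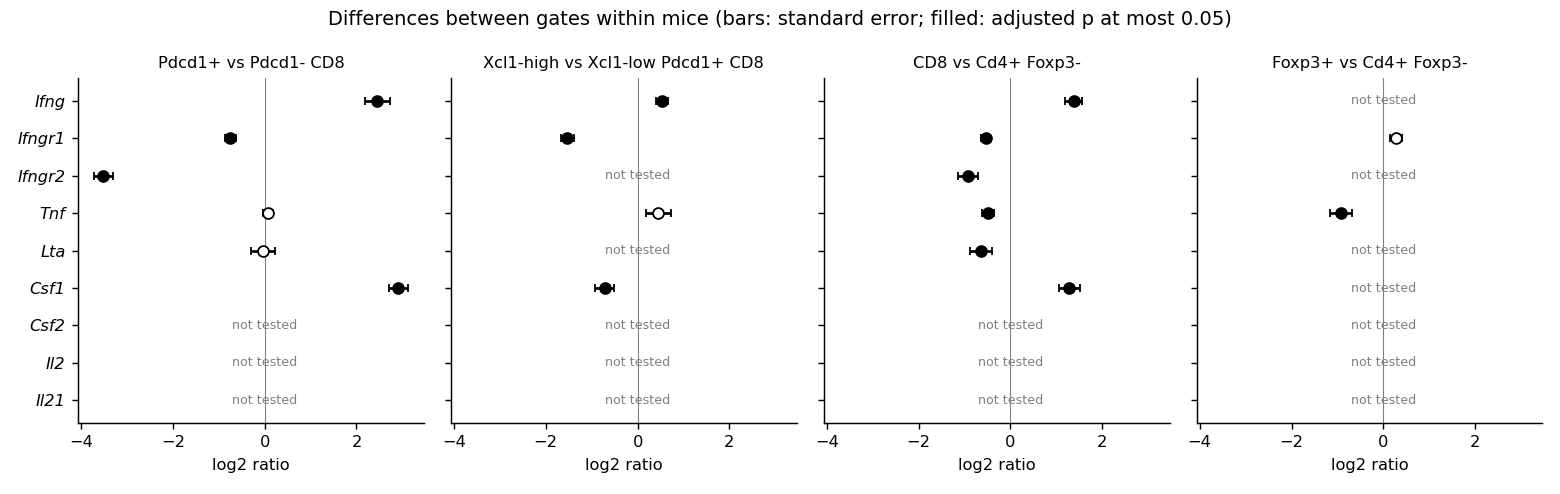
Log2 ratio of each member in 4 contrasts of gates within mice, with bars for the standard error and filled points for an adjusted p of at most 0.05; members that did not pass the filter on low counts are marked as not tested. Ifng lies above 0 in the 3 contrasts in which it was tested, and Ifngr2 lies at -3.51 in the Pdcd1 contrast.

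The question of co-detection was whether cells with an Ifng UMI also held the other members more or less often than cells without one, at the same depth. Cells of a gate were put in 10 bins of total UMIs, and the share of cells with a UMI of the member was compared within bins and averaged per mouse. Over 40 pairs of gate and member, 0 passed the adjusted threshold and 9 had an unadjusted exact sign-flip p under 0.05. The smallest p that 8 mice allow is 0.0078 and that 7 mice allow is 0.0156, and the smallest adjusted p was 0.0781, so that no pair was called. The sizes and directions below are given with that limit.

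Ifngr2 was found less often in cells with Ifng in the gates tested other than Pdcd1+ Xcl1-high. In Pdcd1- Xcl1-low CD8 cells 4.13% of Ifng-positive and 16.6% of matched Ifng-negative cells held an Ifngr2 UMI, a difference of -12.5 ± 3.55 percentage points (SD over mice, range -17.6 to -7.90), lower in 8 of 8 mice (exact p = 0.0078, adjusted p = 0.0781). The odds ratio over all mice and bins was 0.207 (95% interval 0.119 to 0.360, counting error only). In Pdcd1+ Xcl1-low cells the shares were 0.875% and 4.17% (-3.30 ± 2.35 points, lower in 8 of 8 mice, exact p = 0.0078, adjusted p = 0.0781). In Cd4+ Foxp3- cells they were 2.87% and 17.1% (-14.2 ± 4.69 points, lower in 7 of 7 mice, exact p = 0.0156, adjusted p = 0.104). Undetermined T cells showed -7.88 points, with 1 mouse higher and 6 lower. In Pdcd1+ Xcl1-high cells, with 57 usable Ifng-positive cells, the difference was 2.53 points (2.53% against 0%, higher in 2 mice and lower in 0). Only 2 cells of that gate held an Ifngr2 UMI, and both also held Ifng.

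Cells with Ifng were also less often cells with Ccr7 or Lef1: 52.7% against 85.0% of Ifng-negative cells in Pdcd1- Xcl1-low, 30.6% against 45.6% in Pdcd1+ Xcl1-low and 45.6% against 75.6% in Cd4+ Foxp3- cells. The Ifngr2 comparison was therefore repeated in cells without a Ccr7 or Lef1 UMI, a choice made after seeing the data. The difference in Pdcd1- Xcl1-low cells was then -5.16 points (0.338% against 5.49%), lower in 7 mice and higher in 0 (exact p = 0.0156, adjusted p = 0.1875). For Pdcd1+ Xcl1-low cells it was 0.194 points (0.957% against 0.763%, higher in 4 mice and lower in 2). Cd4+ Foxp3- cells left fewer than 6 mice and gave no value.

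Tnf was found more often beside Ifng in every mouse used of the Pdcd1- Xcl1-low and Cd4+ Foxp3- gates, and with mice on both sides of 0 in the others. Of Pdcd1- Xcl1-low cells, 21.5% of Ifng-positive and 8.72% of matched negative cells held a Tnf UMI (12.7 ± 9.61 points, range 4.68 to 34.3, higher in 8 of 8 mice, exact p = 0.0078, adjusted p = 0.0781), with an odds ratio of 2.55 (1.85 to 3.51). In Cd4+ Foxp3- cells the shares were 29.6% and 8.91% (20.7 ± 15.9 points, higher in 7 of 7 mice, exact p = 0.0156, adjusted p = 0.104). Pdcd1+ Xcl1-low cells gave 18.7% and 20.4% (-1.78 ± 7.70 points, higher in 5 mice and lower in 3, adjusted exact p = 0.740). In Pdcd1+ Xcl1-high cells, with 57 usable Ifng-positive cells, the shares were 32.9% and 17.1% (15.8 ± 42.6 points, higher in 4 mice and lower in 2, adjusted exact p = 0.577). Undetermined cells gave 13.1% and 7.28% (5.84 ± 10.9 points, higher in 5 mice and lower in 2, adjusted exact p = 0.455). The difference between the gates was not tested. Without Ccr7 or Lef1 cells the Tnf difference in Pdcd1- Xcl1-low cells was 9.41 points (higher in 6 mice and lower in 2), and in Pdcd1+ Xcl1-low cells it was 5.82 points (higher in 5 mice and lower in 3).

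Csf1 was found more often beside Ifng in Pdcd1+ Xcl1-low cells, in 30.6% of Ifng-positive and 20.3% of matched negative cells (10.4 ± 9.13 points, range 1.12 to 28.3, higher in 8 of 8 mice, exact p = 0.0078, adjusted p = 0.0781). Without Ccr7 or Lef1 cells the shares were 29.9% and 18.2% (11.7 points, higher in 7 mice and lower in 1). Csf2 was 1.38 points more common beside Ifng in the same gate (higher in 6 mice and lower in 1, adjusted exact p = 0.208). For Ifngr1 the differences were 1.42 points in Pdcd1+ Xcl1-low, 5.07 in Pdcd1- Xcl1-low and 6.23 in Cd4+ Foxp3- cells, with mice on both sides of 0 in each. In Pdcd1+ Xcl1-high cells 57 of 128 Ifng-positive cells could be used, and Ifngr1 stood at -15.6 ± 22.8 points there (adjusted exact p = 0.357).

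**Figure D4:**
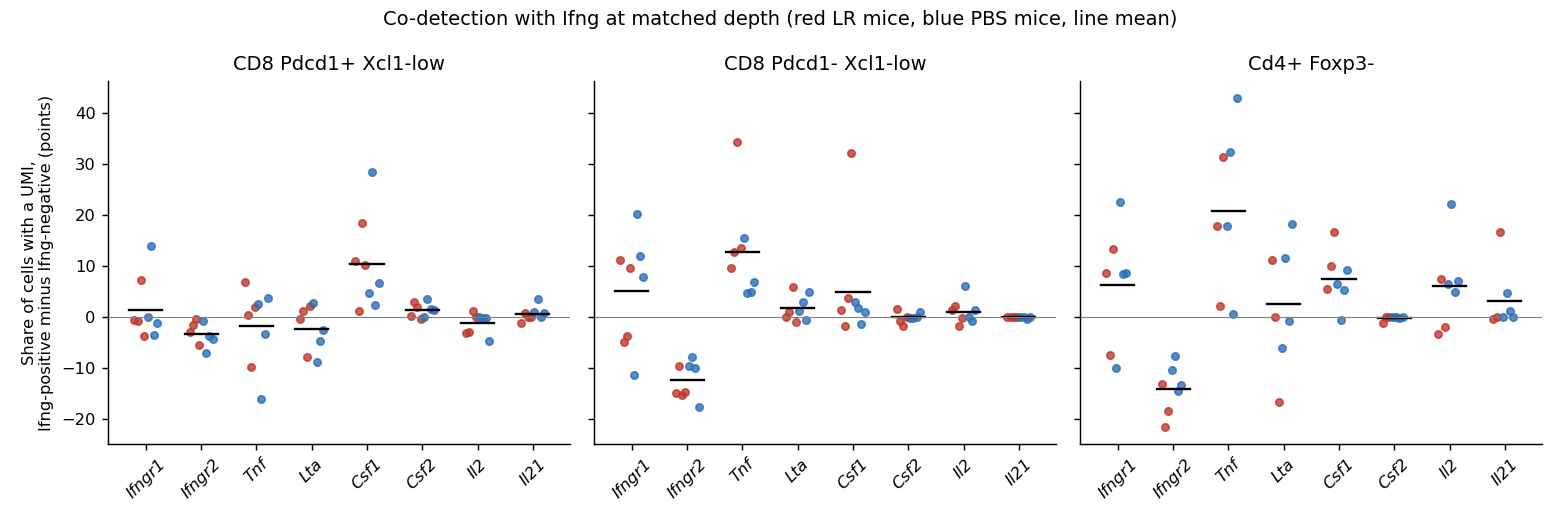
Difference in the share of cells with a UMI of each member, Ifng-positive minus Ifng-negative cells at matched depth, in percentage points, with 1 point per mouse (LR red, PBS blue) and a line at the mean, in 3 gates. All points of Ifngr2 lie below 0 in the 3 gates, and those of Tnf lie above 0 in Pdcd1- Xcl1-low and Cd4+ Foxp3- cells.

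Summed counts of Ifng-positive cells and of the Ifng-negative cells nearest in depth gave the same question over all genes. Among the members besides Ifng, 0 were called in Pdcd1+ CD8 (3 tested), Pdcd1- CD8 (1 tested) and Cd4+ Foxp3- cells (1 tested), where 3.83% (2.03% higher, 1.8% lower), 15.7% (6.61% higher, 9.06% lower) and 10.5% (5.14% higher, 5.34% lower) of all genes were called. In Pdcd1+ cells Csf1 stood at 0.42 ± 0.15 (adjusted p = 0.150), Ifngr1 at -0.18 ± 0.09 (adjusted p = 0.370) and Tnf at -0.00. With no filter Ifngr2 was lower, at -2.32 on the log2 scale in Pdcd1+ (adjusted p = 5.0e-05) and -1.998 in Pdcd1- cells. In Cd4+ Foxp3- cells Ifngr2 stood at -2.05 and was not called (adjusted p = 0.234). Tnf was then higher by 1.23 in Pdcd1- (adjusted p = 0.00235) and by 2.07 in Cd4+ Foxp3- cells (adjusted p = 0.0128). Over all genes that setting called 403 of 15157 in Pdcd1+, 338 of 13266 in Pdcd1- and 70 of 11891 in Cd4+ Foxp3- cells. Depth was not equal in Pdcd1+ pairs, with medians by mouse of 5619.5 to 9395 UMIs in positive and 3592.5 to 6741 UMIs in negative cells. With only pairs within 10% of each other in UMIs, 430 pairs remained and 59 genes were called in place of 245, with Csf1 at 0.33 and Tnf at 0.55 (adjusted p = 0.214).

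Ifng-positive Pdcd1+ cells had more of the chemokine genes Ccl3 (943 ± 472 against 176 ± 81.9 CPM, log2 ratio 2.35) and Ccl4 (1991 ± 452 against 479 ± 272 CPM, 2.12), and of Serpina3f (0.96), Rgs16 (0.92) and Tmcc3 (0.87). They had less of Klf3 (-2.30), Tcf7, the factor of stem-like T cells (39.6 ± 16.0 against 199 ± 97.9 CPM, -2.20), Il7r (-1.96) and Satb1 (-1.86). In pairs within 10% of UMIs Ccl3 stood at 2.32, Ccl4 at 2.17 and Tcf7 at -1.93. This contrast was not run without the 2 cells of over 100 Ifng UMIs, 1 of which held 640 Ccl3 and 502 Ccl4 UMIs. Ccl3 and Ccl4 were each higher in 8 of 8 mice. Of the 10 signalling genes 0 were higher and 1 lower, of 10 targets 1 was higher and 1 lower, of 13 regulators 2 were higher and 0 lower, of 6 receptors 1 was higher and 0 lower, and of 4 other cytokines 0 were called, against a background of 3.83%. Socs3 (-1.39) fell, and Bhlhe40 (0.58), Nfatc1 (0.33) and Psmb9 (0.27) rose, each in 8 of 8 mice. Nfatc1 and Psmb9 lost their calls in the closer pairs (adjusted p = 0.291 and 0.293). The remaining calls, named after their values were seen, were the target Igtp (-0.51) and the receptor chain Il2rb (0.33), each in 7 of 8 mice.

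In Pdcd1- CD8 cells Bhlhe40 (1.83), the NK-type receptors Klrk1 (1.72) and Klrc1 (1.49), Gzmb, a cytotoxic protease (1.51), and the chemokine Ccl5 (1.37) were higher in Ifng-positive cells. Ccr7 (-1.75), Rflnb (-1.40), Nsg2 (-1.28), Satb1 (-1.26) and Lef1 (-1.26) were lower. In Cd4+ Foxp3- cells Itgb1 (1.48), the chemokine receptor Cxcr3 (1.27), AW112010 (1.25), Dusp2 (1.23) and Id2 (1.21) were higher, and Ccr7 (-1.90), Crlf3 (-0.73) and the ribosomal protein genes Rpl36a (-0.69), Rps28 (-0.63) and Rpl12 (-0.63) were lower. The cells were chosen by Ifng, which remains in the counts. With library totals in the Pdcd1- contrast the median of all genes moved to 0.138 and 69.2% of called genes were higher, against 42.2%.

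Across 53 sums of mouse and gate over 8 gates, the genes whose level, as log2(CPM + 10), was most like that of Ifng by Pearson correlation were Stk39 (0.854), Serpinb6b (0.833), Serpinb9 (0.832), Nr4a2 (0.823) and Cxcr6 (0.822), of 6014 genes. The gene most like Ifngr2 was Pde4b (0.906), that most like Ifngr1 was P2ry10 (0.852), and those most like Csf1 and Csf2 were Adam8 (0.840) and Lad1 (0.823). Tnf (Ap1s2, 0.573), Lta (Arglu1, 0.557), Il2 (Slc38a2, 0.667) and Il21 (Rcl1, 0.550) had no gene as close. Between members, Ifng correlated with Csf2 at 0.56, with Csf1 at 0.53, with Tnf at 0.24, with Ifngr1 at -0.41 and with Ifngr2 at -0.61. The points share 8 mice and 1 library and differ in depth, so these values are descriptions.

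The study's own comparison was between mice given L. reuteri and the PBS mice. No member was called between LR and PBS in any of the 5 gates that could be fitted: CD8 (7 of 9 members tested), Pdcd1+ CD8 (6), Pdcd1+ Xcl1-low (4), Pdcd1- Xcl1-low (5) and Cd4+ Foxp3- cells (4). Over all genes 0%, 0.0114%, 0.0239%, 0% and 0% were called in these gates by edgeR. In CD8 cells that count of 0 of 9917 genes stood beside 738 genes with an unadjusted p under 0.05 and 3 called by DESeq2. Among Pdcd1- Xcl1-low cells 404 genes and among Cd4+ Foxp3- cells 165 genes had an unadjusted p under 0.05, and DESeq2 called 0 in each. The members had a median log2 ratio of 0.04, 0.14, 0.20, 0.16 and 0.21 in the same order, against 0.00 to 0.01 over all genes. In no tested member did LR and PBS mice separate without overlap, which 3%, 2.8%, 3.28%, 2.95% and 2.57% of genes did.

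Ifng in Pdcd1+ CD8 cells was at 729, 256, 228 and 258 CPM in LR mice 1 to 4 and at 260, 127, 288 and 286 CPM in PBS mice 6 to 9. LR mouse 1 was far above the rest and PBS mouse 7 below them, and the other 3 mice of each group lay close together. The means were 368 ± 241 and 240 ± 76.7 CPM (SD, n = 4 each), with a log2 ratio of 0.60 ± 0.34 (adjusted p = 0.959, edgeR). Without the 2 cells of over 100 Ifng UMIs, a choice made after seeing the data, LR mouse 1 stood at 215 CPM, the LR mean at 239 ± 21.2 CPM and the log2 ratio at -0.02. With the mix of Xcl1 gates held fixed the means were 370 ± 240 and 242 ± 79.0 CPM (two-sided exact permutation p = 0.543), and 242 ± 28.8 and 242 ± 79.0 CPM without those cells. The Xcl1-high share of Pdcd1+ cells was 13.0 ± 8.13% in mice given L. reuteri and 9.16 ± 2.29% in the others (exact permutation p = 0.486).

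**Figure D5:**
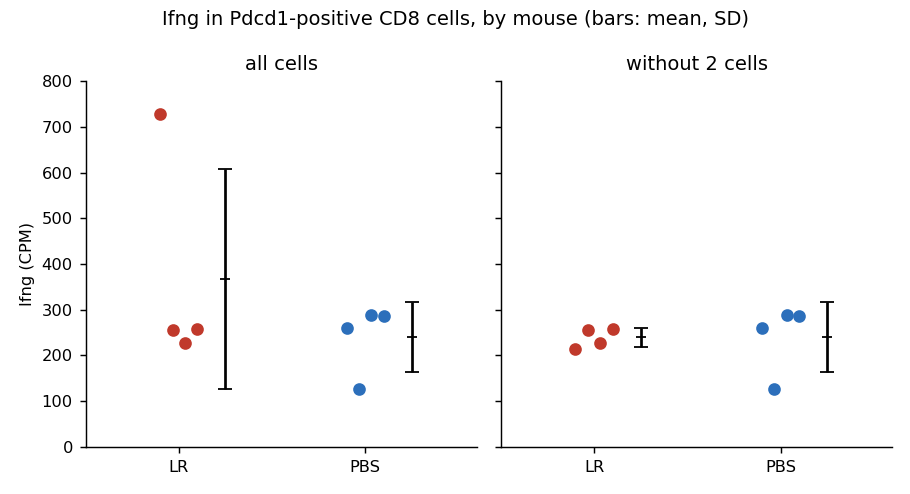
Ifng level (CPM) in Pdcd1+ CD8 cells of each LR and PBS mouse, with all cells (left) and without the 2 cells of over 100 Ifng UMIs (right); bars give the mean and SD of 4 mice. LR mouse 1 moves from 729 to 215 CPM, and the means of the groups move from 368 and 240 to 239 and 240 CPM.

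In all CD8 cells Ifng was at 304, 196, 173 and 224 CPM in LR and at 211, 32.8, 135 and 143 CPM in PBS mice, so that the groups overlapped. The log2 ratio was 0.79 ± 0.42 (adjusted p = 0.614, edgeR) and 0.40 without the 2 cells. Among Pdcd1+ Xcl1-low cells it was 0.70 ± 0.32 (unadjusted p = 0.0467, adjusted p = 0.873) and 0.03 without them. For Pdcd1- Xcl1-low cells it was 0.62 ± 0.47 and in Cd4+ Foxp3- cells 0.27 ± 0.55. The share of cells with an Ifng UMI, thinned to 2000 UMIs, was 19.3 ± 6.45% in LR CD8 cells and 13.3 ± 9.06% in those of PBS mice (exact permutation p = 0.371; 31.9% and 20.8% unthinned). Over 7 gates the adjusted exact permutation p of this share was 0.886 in each, and 4 against 4 mice allow no unadjusted p below 0.029.

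The receptor chains showed no separation by treatment in the fitted gates. Ifngr1 stood at 0.04 in CD8 and -0.02 in Pdcd1+ CD8 cells, and Ifngr2 at -0.71 ± 0.53 in CD8 cells. In Pdcd1+ Xcl1-high cells, with 10 to 34 cells per mouse and too few for the fit, Ifngr1 was at 120, 99.9, 146 and 134 CPM in LR and at 224, 232, 204 and 177 CPM in PBS mice. Every LR mouse was below every PBS mouse there (125 ± 19.97 against 209 ± 24.7 CPM). Of 5665 genes with a mean of at least 20 CPM in that gate 2.42% also separated without overlap, and Ifngr1 was the single one of 6 such members. The value has no adjusted test.

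Lta had the lowest unadjusted p of the members in CD8 cells. It was at 8.77, 12.5, 10.65 and 7.60 CPM in LR and at 21.4, 17.2, 10.95 and 12.6 CPM in PBS mice, with means of 9.87 ± 2.14 and 15.6 ± 4.74 CPM and overlapping groups. Its log2 ratio was -0.69 ± 0.23 (unadjusted p = 0.0148, adjusted p = 0.614, edgeR). Csf1 stood at 0.92 ± 0.52 in CD8 (45.2 ± 30.9 against 24.5 ± 16.7 CPM) and 0.34 in Pdcd1+ CD8 cells, and Csf2 at 0.66 in CD8 cells. Tnf stood at -0.01 in CD8 cells. Of the 5 pathway lists, no gene was called between LR and PBS in any of the 5 gates. Gzmb, which encodes granzyme B and is no member, was the gene called in Pdcd1+ CD8 cells (0.76, adjusted p = 0.00615). The same 4 markers of exhausted cells, without Pdcd1, summed to 1060 to 1655 CPM in LR and 795 to 1141 CPM in PBS Pdcd1+ cells, and to 619 to 1421 and 219 to 794 CPM in all CD8 cells, and their part in the values above was not tested.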

How the data were processed

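One droplet experiment (Chromium 5′ v2) gave gene expression and hashtag libraries, deposited as 1 matrix of raw UMI counts for 32285 genes and 9 hashtags in 16969 barcodes. The submitters' processing notes name Cell Ranger 4.0.0 and GRCm38. For the annotation release and further filters nothing is given in the sources used here. Treatment and mouse come from the hashtag names, LR being read as the L. reuteri treatment of the labels.

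The 14474 barcodes that held 500 genes or more, with mitochondrial counts up to 10%, were kept. A hashtag was called by a 2-component mixture on log10 counts (scikit-learn 1.9.0), with LR mouse 5 left out. Of the barcodes kept, 11225 had 1, 2570 had 2 or more and 679 had none. Scrublet (scanpy 1.11.5, rate 0.1) marked 1971 barcodes (13.6%) as doublets, 819 of them with 1 hashtag, which left 10406 cells. Gates use Pdcd1, Xcl1, Cd8a, Cd8b1, Cd4 and Foxp3 from the same counts, so these genes are no findings.

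Counts summed per mouse and gate were tested with edgeR 4.0.16 (R 4.3.3; quasi-likelihood, TMM, filterByExpr, Benjamini-Hochberg over all genes tested), with the mouse as a block between gates of the same mice, where the pairing is the animal itself. DESeq2 1.42.0, library totals, no filter, other gate cut-offs and leaving out each mouse were alternatives. Treatment fits needed 20 cells in every mouse and gate fits 10. Shares were thinned to 2000 UMIs by their expected value, and single values tested by exact permutation (Python 3.11.15, scipy 1.17.1). The edgeR fits, the co-detection difference and the thinning were tried on simulated data, and the exact permutation tests were not. Upstream windows are RefSeq sequences, matched by symbol for all 9 members.

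The members and the gene lists were chosen with earlier results of these data known. Named are the 9 members; per list and contrast at most the 3 genes with the largest log2 ratio among those called and changed the same way in every mouse; the 5 genes most like Ifng and 1 for each other member; and, between Ifng-positive and Ifng-negative cells, the 5 highest and 5 lowest log2 ratios under the same conditions. Any other name was chosen with its value in view, and 1 gene that the rule would name is not reported here.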

Additional observations from a re-analysis of the deposited data

Results flagged for a closer look

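Of 52 groups of 4 mice (a member in a gate, within LR or PBS), 6 held a mouse whose gap to the nearest of the others, over the range of the group, was above Dixon's 95% critical value for 4 samples; chance alone gives such a flag in about 5% of groups. Ifng stood at 729 CPM in Pdcd1+ CD8 cells of LR mouse 1 and at 673 CPM in its Pdcd1+ Xcl1-low cells; 1 cell with 726 Ifng UMIs held 57.1% of the Ifng UMIs of its Pdcd1+ CD8 cells. In PBS mouse 7 Ifng was low, at 128 CPM in Pdcd1+ Xcl1-low cells, and Lta was high, at 17.1 CPM in Pdcd1- Xcl1-low CD8 cells. Csf2 was high in PBS mouse 8, at 11.7 CPM in CD8 and 27.0 CPM in Pdcd1+ CD8 cells.

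A ninth hashtag, named LR mouse 5, gave a total count of 5699. It was left out when hashtags were called, so that no cell was assigned to it by design. It was not used in any comparison.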

How the results depend on the processing

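No paired analysis was possible for LR against PBS because the groups are different animals and the numbers in their names pair nothing. Of 1357 settings of single members 1242 kept direction and side of the threshold, 17 lost the threshold, 4 passed it and 94 changed sign; of 513 settings of counts and main values 470 stayed within their limits, 35 moved and 8 changed sign. Alternatives that drop the 2 cells, the Ccr7 or Lef1 cells or pairs over 10% apart in UMIs were chosen after seeing the data. Low counts set the limit: 2 to 7 of the 9 members passed the filter in a gate, and the cause of a change below was not tested.

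Between LR and PBS, DESeq2 called 3 genes in CD8 and 3 in Pdcd1+ CD8 cells, and no filter called 23 genes in Pdcd1+, 39 in Pdcd1+ Xcl1-low, 20 in Pdcd1- Xcl1-low and 31 in Cd4+ Foxp3- cells, none of them a member. For Pdcd1+ Xcl1-low cells 1 gene was called with doublets kept and 1 with Xcl1 at 2 UMIs. Tnf in CD8 cells stood at 0.022 with library totals, and without the 2 cells Ifng stood at -0.020 and Csf2 at -5.7e-05 in Pdcd1+ cells. Leaving out each mouse in turn gave, in CD8 cells, -0.19 to 0.21 for Ifngr1 and -0.10 to 0.19 for Tnf. In Pdcd1+ cells it gave 0 to 2 genes, -0.074 to 0.56 for Csf1, -0.16 to 0.14 for Ifngr1, -0.089 to 1.39 for Csf2, -0.21 to 0.20 for Tnf and -0.70 to 0.040 for Lta. It gave, in Pdcd1+ Xcl1-low cells, 0 to 3 genes, -0.13 to 0.58 for Csf1, -0.085 to 0.24 for Ifngr1 and -0.38 to 0.12 for Tnf. In Pdcd1- Xcl1-low cells it gave 0 to 2 genes, -0.026 to 0.39 for Ifngr1 and -0.38 to 0.087 for Ifngr2. In Cd4+ Foxp3- cells it gave -0.071 to 0.44 for Ifngr1, -0.31 to 0.63 for Ifng, -0.049 to 0.26 for Ifngr2 and -0.0092 to 0.34 for Tnf. The thinned Ifng share difference (LR minus PBS, points) ran from -5.11 to 3.79 in Pdcd1+ Xcl1-high, -1.62 to 5.56 in Pdcd1+ Xcl1-low, -1.47 to 3.28 in Cd4+ Foxp3- and -0.0387 to 1.59 in Foxp3+ cells, and in undetermined cells it was -1.18 at 1000 UMIs and -0.353 unthinned.

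In the Pdcd1 contrast Lta stood at 0.11 with library totals, 0.037 with DESeq2, 0.048 with doublets kept, 0.051 with Pdcd1 at 2 UMIs and -0.20 to 0.20 without single mice. Tnf stood at -0.12 with Pdcd1 at 2 UMIs and -0.45 without Ccr7 or Lef1 cells, where 1984 genes were called. The pairing of gates by mouse mattered for CD8 against Cd4+ Foxp3- cells, where no block left 2 members, with 2023 genes called in place of 2320. For Foxp3+ cells 2 members were called with library totals, 2 of the same 2 with no filter, 0 with at most 5% mitochondrial counts (Tnf then failed the filter) and 1 to 2 without single mice, and no filter called 3152 genes. Between Ifng-positive and Ifng-negative Pdcd1+ cells 403 genes were called with no filter, 50 without the block, 106 with DESeq2, 59 in pairs within 10% and 149 (without PBS mouse 9) to 249 without single mice. Tnf there stood at 0.0093 with no filter, 0.016 without the block, 0.023 with doublets kept, 0.010 at 5% mitochondrial counts, 0.095 with Ifng at 2 UMIs, 0.55 in pairs within 10% and -0.15 to 0.072 without single mice. In Pdcd1- cells 164 genes were called without the block, 176 with DESeq2 and 151 with Ifng at 2 UMIs, and Ifngr1 stood at -0.24 with Ifng at 2 UMIs and -0.036 to 0.16 without single mice. In Cd4+ Foxp3- cells leaving out a mouse gave 26 (without PBS mouse 8) to 64 genes and -0.019 to 0.33 for Ifngr1.

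Co-detection differences (points) that changed sign were as follows. In Pdcd1+ Xcl1-high cells Csf1 stood at -3.60 with 5 bins, -11.25 with 20 bins, -0.205 with Ifng at 2 UMIs and -2.93 to 12.8 without single mice, Il2 at 1.39 with 5 bins, Il21 at -0.442 with 5 bins, -1.04 with 20, -1.13 with doublets kept and -2.03 to 3.69 without single mice, Ifngr1 at 4.58 with 20 bins and Lta at 1.59 with Ifng at 2 UMIs. In Pdcd1+ Xcl1-low cells Ifngr1 stood at -0.889 with 20 bins, -0.761 without Ccr7 or Lef1 cells and -0.376 to 2.14 without single mice, and Tnf at 5.82 and Ifngr2 at 0.194 without Ccr7 or Lef1 cells, with -3.00 to 0.277 for Tnf without single mice. In Pdcd1- Xcl1-low cells Lta stood at -0.655 without Ccr7 or Lef1 cells and Csf2 at -0.303 to 0.154 without single mice. In Cd4+ Foxp3- cells Lta stood at -0.472 with 20 bins and -0.148 to 5.66 without single mice. In undetermined cells Ifngr1 stood at -0.271 with 20 bins and -2.99 to 3.35 without single mice, Lta at 0.0325 with 20 bins, 1.35 without cells above the 95th percentile of UMIs, 0.251 without Ccr7 or Lef1 cells and -2.36 to 0.177 without single mice, Csf1 at 0.324 with 20 bins, 1.12 with doublets kept and -1.33 to 0.310 without single mice, and Il2 at -0.982 without cells above the 95th percentile.

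Not run for lack of cells were LR against PBS in Pdcd1+ Xcl1-high, Pdcd1- Xcl1-high and Foxp3+ cells (lowest 10, 1 and 14 cells per mouse), Pdcd1- Xcl1-high against low, Ifng at 2 UMIs in Cd4+ Foxp3- cells, and the Xcl1 contrast without Ccr7 or Lef1 cells.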
